A study of Rattus norvegicus with 4 samples.

Results

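The genes described here are those of the ATF4 branch of the stress response and of amino acid stress, taken by symbol from the probe annotation of the array. Of 10 listed genes (Atf4, Atf5, Ddit3, Trib3, Asns, Chac1, Sesn2, Fgf21, Psat1 and Phgdh), 9 had a named probe, with 12 probes in all. The array had 33849 gene probes, which named 12461 genes. Asns, Sesn2 and Psat1 had 2 probes each, Atf4, Atf5, Ddit3, Trib3, Chac1 and Fgf21 had 1, and Phgdh is named only. The RNA came from livers of male Otsuka Long-Evans Tokushima Fatty (OLETF) rats, which lack a working cholecystokinin A receptor, overeat and become obese and diabetic on standard chow. In the thiamine group, thiamine (vitamin B1) was supplied in the drinking water at 0.2%, or 2 g per L, for 51 weeks starting when the rats were 4 weeks old. In the untreated group the water held 0% thiamine. The rats of both groups ate the same chow and were killed aged 55 weeks, 16 h after food was withdrawn. Each group of the study had 8 rats, housed 2 to a cage. The livers of 2 rats per group were measured, each on a 1-colour CodeLink array of its own, and the labels do not tell which of them were cage mates. The comparison asks how these stress genes differ in the liver of this obese strain after long thiamine intake.

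The ATF4 branch begins with kinases that phosphorylate the translation factor eIF2 when amino acids run short, when the endoplasmic reticulum is loaded with unfolded protein, or under other stress. Protein synthesis then slows in general, while the mRNA of the transcription factor ATF4 is translated better, so that its protein can change with little change of its mRNA. ATF4 in turn activates genes for amino acid synthesis and uptake, for the transcription factor CHOP and, in liver, for the fasting hormone FGF21. The arrays measured mRNA only.

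Between 18176 and 20071 of the gene probes were above background per array, and with arrays it is the number of animals, here 2 per group, that limits the precision. Tests were run on the 18664 probes that were clear of background in both livers of the thiamine group, the untreated group or both, among them 9 of the 12 probes of the listed genes. All 5 hepatocyte markers that were looked up (Alb, Ttr, Apoa1, Serpina1 and Tat) were above background on all 4 arrays. Levels below are log2 normalised intensities, and each difference is thiamine minus untreated. Each SE is limma's, in which a probe's own spread is moderated by that of all the others.

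None of the 8 members with a kept probe passed the test, so the values that follow are differences that were measured and not called. Ddit3 and Trib3 were higher in both thiamine livers than in both untreated livers, each by about 0.4 on the log2 scale. Atf5 and Sesn2 were lower in both thiamine livers, while Atf4, Asns, Chac1 and Fgf21 overlapped between the groups. The widest contrast in the set lay between the 2 untreated rats: Fgf21 was 5.0-fold higher in untreated rat 2 than in untreated rat 1. With limma and Benjamini-Hochberg adjustment over all kept probes, 0 of the 8 members had an adjusted p under 0.05, beside 0% of all kept probes (0 of 18664). With limma's p before adjustment, 1 of the 8 (Atf5, lower) was under 0.05, where 6.75% of all kept probes were, 2.94% lower and 3.81% higher. Groups without overlap were seen in 2 of the 8 with thiamine higher and in 2 with thiamine lower. Among all genes with a kept probe these shares were 18.5% and 19%. A permutation of the 4 rats could not give an exact two-sided p below 0.333.

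**Figure D1:**
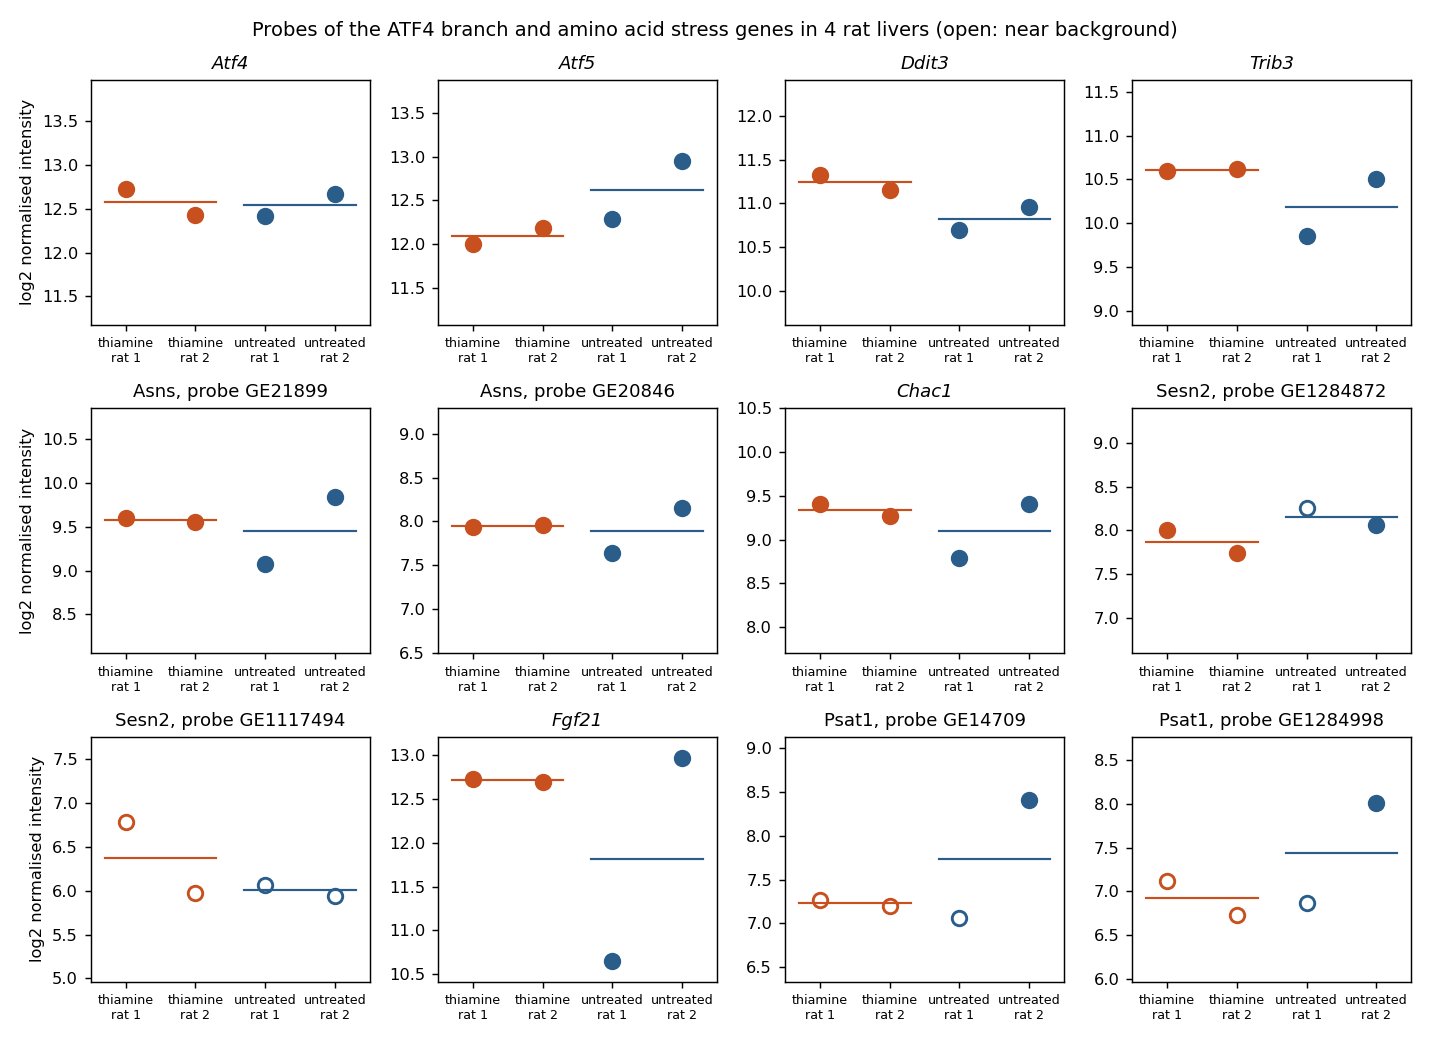
Log2 normalised intensity of every probe of the listed genes (vertical axes, each spanning the same range) in thiamine rats 1 and 2 and untreated rats 1 and 2. Filled points were above background, open points were flagged as near background, and horizontal lines are group means. Fgf21 stood at 10.65 in untreated rat 1 and between 12.70 and 12.97 in the other livers, and Psat1 was above background in untreated rat 2 alone.

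Among the transcription factors, Atf4 itself was at 12.73 and 12.43 in thiamine rats 1 and 2, against 12.42 and 12.66 in untreated rats 1 and 2. The livers of the groups interleaved, and the means were 12.58 ± 0.21 with thiamine and 12.54 ± 0.17 without (SD, n = 2 each). The difference of 0.04 ± 0.20 (SE) had a 95% interval from -0.39 to 0.47 (limma, adjusted p = 0.98). It changed sign when 1 rat was left out, to -0.11 without thiamine rat 1 and -0.09 without untreated rat 1.

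Ddit3 encodes CHOP, a transcription factor that ATF4 induces and that favours cell death under prolonged stress. It was at 11.33 and 11.16 in thiamine rats 1 and 2, against 10.70 and 10.96 in untreated rats 1 and 2. Both thiamine livers lay above both untreated livers, with means of 11.24 ± 0.12 and 10.83 ± 0.18 (SD, n = 2 each). The difference was 0.42 ± 0.19 (SE), a ratio of 1.33, with limma's adjusted p at 0.74. It stayed between 0.29 and 0.54 when any 1 rat was left out.

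Atf5, a factor related to ATF4 and likewise controlled at translation, lay in the other direction. It was at 12.00 and 12.19 in thiamine rats 1 and 2, against 12.29 and 12.95 in untreated rats 1 and 2. Both thiamine livers lay below both untreated livers, and untreated rat 2 stood apart from the other livers. The difference was -0.53 ± 0.23 (SE; 95% interval from -1.03 to -0.02; limma, adjusted p = 0.72). The spot of untreated rat 2 carried a contamination flag. With flagged spots set to missing the difference was -0.17, and without untreated rat 2 it was -0.19.

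Of the stress effectors, Trib3 encodes a pseudokinase that ATF4 induces and that binds ATF4 in return. It was at 10.59 and 10.62 in thiamine rats 1 and 2, against 9.86 and 10.50 in untreated rats 1 and 2. The thiamine livers were nearly equal and both above the untreated ones, of which rat 1 was clearly the lower. The difference was 0.42 ± 0.22 (SE; limma, adjusted p = 0.80). Leaving out untreated rat 1 gave 0.10, and leaving out untreated rat 2 gave 0.75.

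Chac1 encodes an enzyme that breaks down glutathione. It was at 9.41 and 9.27 in thiamine rats 1 and 2, against 8.79 and 9.40 in untreated rats 1 and 2. Untreated rat 1 was low and the other 3 livers were alike. The difference of 0.24 ± 0.22 (SE; limma, adjusted p = 0.90) turned to -0.06 when untreated rat 1 was left out, and was 0.55 when untreated rat 2 was.

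Sesn2 encodes sestrin 2, a leucine sensor that restrains the growth kinase complex mTORC1. Its measured probe was at 8.01 and 7.74 in thiamine rats 1 and 2, against 8.25 and 8.06 in untreated rats 1 and 2. Both untreated values were higher, but the spot of untreated rat 1 was flagged as contaminated and near background. The difference was -0.28 ± 0.19 (SE; limma, adjusted p = 0.85), and -0.18 with flagged spots set to missing. The other Sesn2 probe was not well above background on any array.

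Asns encodes asparagine synthetase, which makes asparagine from aspartate and glutamine. Its brighter probe was at 9.60 and 9.56 in thiamine rats 1 and 2, against 9.07 and 9.84 in untreated rats 1 and 2. The dimmer probe was at 7.93 and 7.96 with thiamine, against 7.63 and 8.15 without. On both probes the thiamine livers were close together, untreated rat 1 was the lowest and untreated rat 2 the highest. The differences were 0.12 ± 0.24 and 0.05 ± 0.21 (SE; limma, adjusted p = 0.96 and 0.98). For the brighter probe, leaving out untreated rat 1 gave -0.26 and leaving out untreated rat 2 gave 0.51.

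The serine synthesis enzyme Psat1, which forms phosphoserine, was above background in 1 of the 4 livers, that of untreated rat 2. Its brighter probe was at 7.27 and 7.20 in thiamine rats 1 and 2, not well above background, against 7.06 and 8.40 in untreated rats 1 and 2. The second probe was at 7.12 and 6.73 with thiamine, against 6.87 and 8.01 without. Both probes thus singled out the same untreated rat. Untreated rat 1 was not well above background either, and on the brighter probe it lay below both thiamine livers. Neither probe was kept for testing, and no fold between the groups is given.

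Fgf21, the fasting hormone that liver cells release, had the widest spread of the set. It was at 12.73 and 12.70 in thiamine rats 1 and 2, against 10.65 and 12.97 in untreated rats 1 and 2. Before normalisation these were background-subtracted signals of 7163 and 6785 with thiamine, against 1418 and 7724 without, and no spot carried a quality flag. Untreated rat 2 had the highest value, close to both thiamine livers, and untreated rat 1 lay far below them. The group means were 12.72 ± 0.03 with thiamine and 11.81 ± 1.64 without (SD, n = 2 each), and the groups overlapped. The difference of 0.90 ± 0.53 (SE) had a 95% interval from -0.26 to 2.07 (limma, adjusted p = 0.82). Which untreated rat was used decided both size and direction. Without untreated rat 2 the difference was 2.06 and passed (limma, adjusted p = 0.016), and without untreated rat 1 it was -0.26 (adjusted p = 0.74). In these fits the lone untreated rat is assumed to vary like the thiamine rats.

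**Figure D2:**
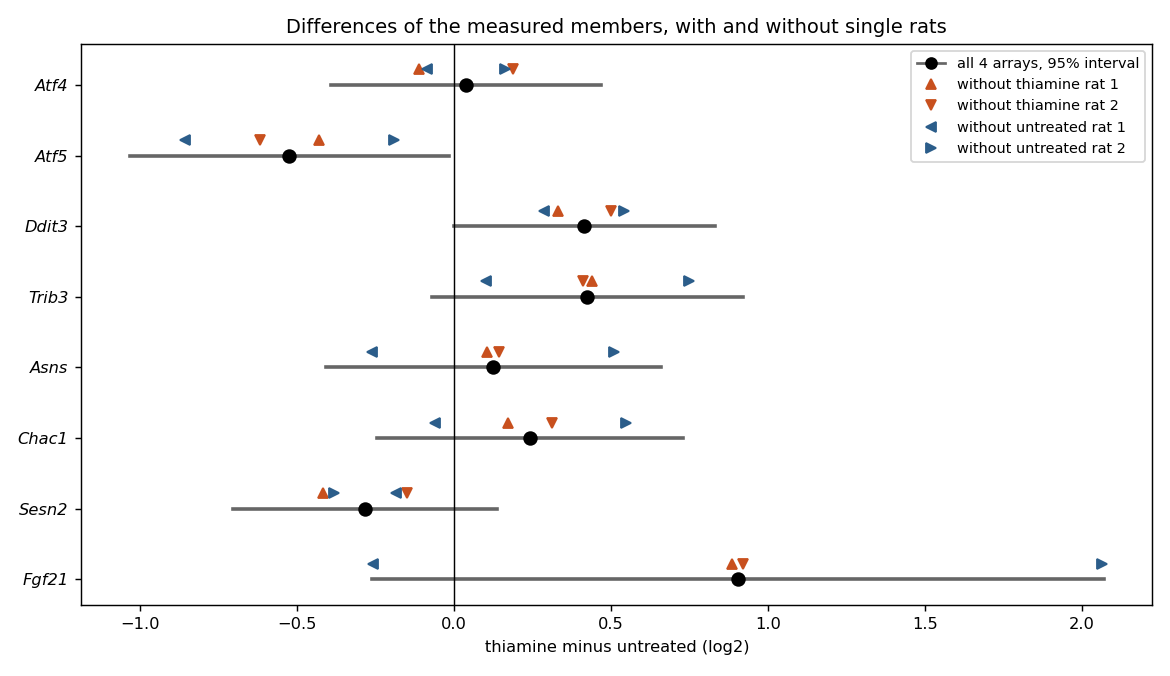
Thiamine minus untreated on the log2 scale (horizontal axis) for the 8 members with a kept probe (rows). Black points with bars are limma's estimates with 95% intervals from all 4 arrays, and triangles are the estimates without 1 rat. The difference of Fgf21 ran from -0.26 without untreated rat 1 to 2.06 without untreated rat 2, while that of Ddit3 stayed between 0.29 and 0.54.

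Trib3, Chac1 and Fgf21 were the members whose promoters held the core of the element that ATF4 binds together with C/EBP factors. Untreated rat 1 had the lowest value of the 4 livers in these genes, as in 6 of the 8 measured members. Atf4, Ddit3 and Asns, also lowest in that rat, had no match in the stretch searched. A link between match and level was not tested. The letters searched were TGATGNAA, on both strands, in the 250 bases before the start of each gene in the RefSeq table of build GRCr8. All 10 listed genes had a window there and 3 of them a match, where 3.4% of all 33469 windows had one. Neither TGACGTCA, the cAMP response element, nor the endoplasmic reticulum stress element (CCAAT and, at a fixed distance after it, CCACG) was, on either strand, in any of the 10 windows. These were in 1.59% and 0.0657% of all windows. A match is a string of letters and not a shown binding site, and elements outside these windows were not searched. The stretches, which begin some bases before each match and end at the gene start, are printed 5′ to 3′ along the gene, with the match, which in each of the 3 lies on the opposite strand, in capitals.
Trib3 (chr3:161275534-161275633, minus strand): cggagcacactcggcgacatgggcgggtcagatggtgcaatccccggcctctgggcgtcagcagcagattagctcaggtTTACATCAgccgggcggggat
Chac1 (chr3:126795954-126796130, plus strand): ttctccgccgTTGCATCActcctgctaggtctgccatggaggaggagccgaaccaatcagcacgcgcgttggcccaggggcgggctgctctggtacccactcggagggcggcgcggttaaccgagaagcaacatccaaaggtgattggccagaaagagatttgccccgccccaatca
Fgf21 (chr1:105221377-105221529, minus strand): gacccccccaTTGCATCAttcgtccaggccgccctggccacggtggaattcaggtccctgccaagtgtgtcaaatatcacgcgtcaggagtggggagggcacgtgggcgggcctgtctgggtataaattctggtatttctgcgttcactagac
In Chac1 and Fgf21 the matched letters were the same, TTGCATCA, and in Trib3 they were TTACATCA. The match began 21 bases before the start of Trib3, 167 before that of Chac1 and 143 before that of Fgf21.

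In 6 of the 8 members the untreated rats differed more from each other than the thiamine rats did, beside 60% of all kept probes. Atf4 and Sesn2 went the other way. The gap between the 2 untreated rats was over 0.5 in 5 of the 8 members (Atf5, Trib3, Asns, Chac1 and Fgf21), against 14.4% of all kept probes. That of Atf5 rests on a spot of untreated rat 2 flagged as contaminated. The gap between the 2 thiamine rats was over 0.5 in 0 of the 8, against 5.73% of all kept probes. The median gap of the 8 was 0.15 between thiamine rats and 0.63 between untreated rats, where all kept probes had medians of 0.16 and 0.22. For Fgf21 the untreated gap of 2.32 was wider than in 99.97% of kept probes, for Asns the gap of 0.77 than in 96.3%, for Atf5 that of 0.67 than in 93.9% and for Trib3 that of 0.65 than in 93.2%. Untreated rat 1 had the lowest value in 6 of the 8 members, all but Atf5 and Sesn2, whereas it was lowest in 29.6% of all genes with a kept probe. These gaps were singled out after the values were seen, are within a group and have no test.

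**Figure D3:**
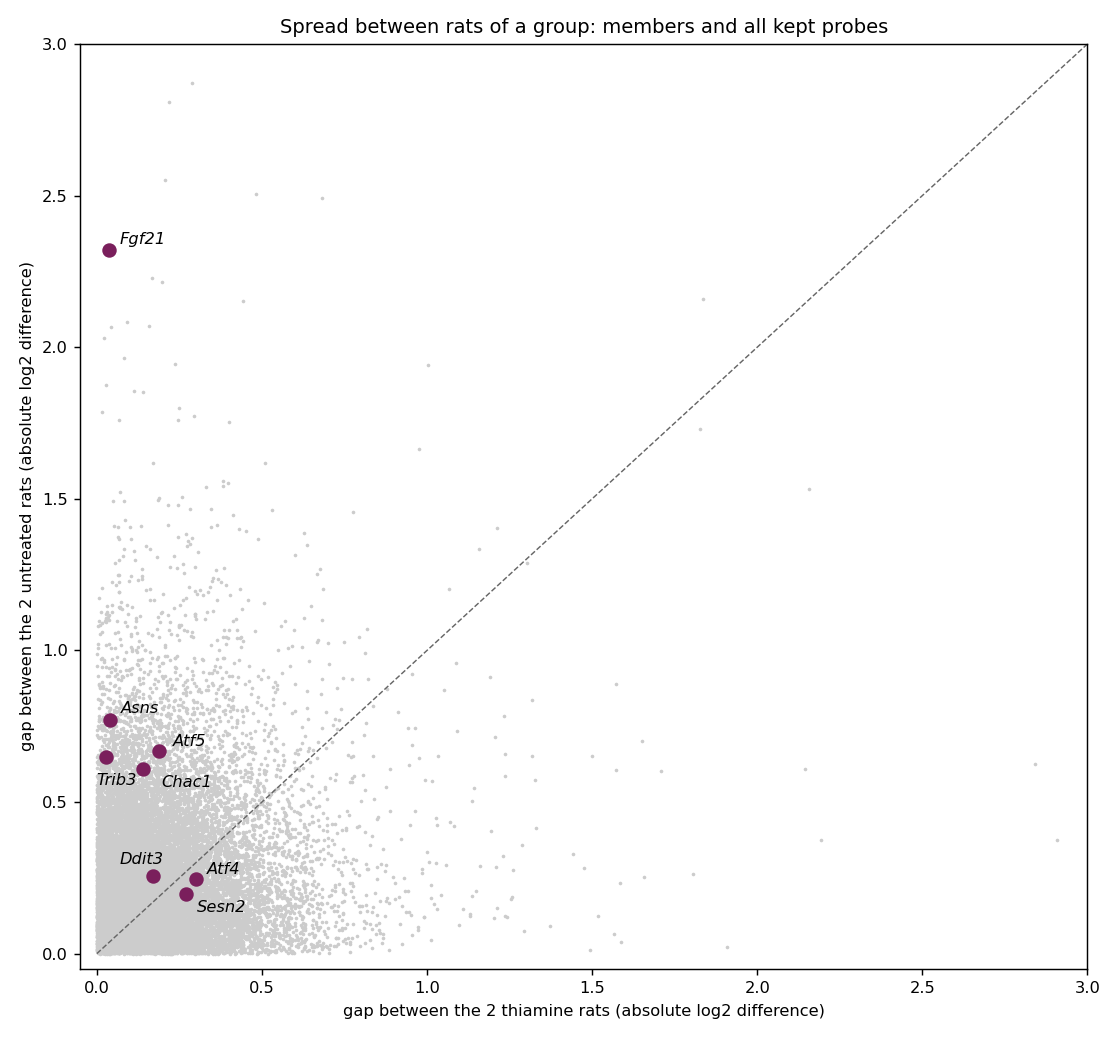
Absolute log2 difference between the 2 thiamine rats (horizontal axis) and between the 2 untreated rats (vertical axis) for the 8 members (named points) and all kept probes (grey). Above the dashed line the untreated rats were further apart. Of the members, 6 of 8 lay above it, with Fgf21 at 0.04 and 2.32, against 60% of all kept probes.

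The counts over the set depended on untreated rat 1. With all 4 arrays, 6 of the 8 members were higher and 2 lower in the thiamine livers, with a median difference of 0.18, where 50.6% of all genes with a kept probe were higher, 49.4% lower, and the median was 0.0035. Without untreated rat 1, 2 of the 8 were higher (Ddit3 and Trib3) and 6 lower, with a median of -0.14. Without untreated rat 2, 6 were higher and the median was 0.53.

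Upstream of ATF4 stand the genes of eIF2 and of its kinases, exchange factor and phosphatases. The array measured 14 of 15 listed; 8 were higher, 6 were lower, 0 passed (limma, adjusted p under 0.05) and the median was 0.03. Leaving out untreated rat 1 gave a median of 0.13, leaving out untreated rat 2 gave 0.01, and leaving out thiamine rat 2 gave 0.06. Impact, an inhibitor of the amino acid sensing kinase GCN2, was at 8.92 and 8.65 in thiamine rats 1 and 2, against 7.99 and 8.56 in untreated rats 1 and 2. Its difference was 0.51 ± 0.22 (SE), or 0.23 without untreated rat 1. The eIF2 subunit gene Eif2s1 was at 0.26 ± 0.19. The heme-sensing kinase Eif2ak1 was at -0.22 ± 0.18 by its brighter probe and at 0.21 by the other. Probes differed for other genes too. The kinase Eif2ak3 (PERK), picked out after its values were seen, was at -0.11 ± 0.20 by its brighter probe and at -0.76 by the other. Eif2ak2 was at -0.10 and 0.18, and Ppp1r15a at -0.12 and 0.08, with the brighter probe first.

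Downstream of ATF4, 6 of the 7 measured amino acid transporters (12 listed) were higher and 1 was lower, with a median of 0.19 and 0 past the test. When 1 rat was left out, 5 or 6 were higher. The glutamine carrier Slc38a2 was at 0.46 ± 0.20, or 0.23 without untreated rat 1. The neutral amino acid carrier Slc1a4 was at -0.43 ± 0.19. The carrier Slc7a6 had levels of 7.73 and 7.75 in thiamine rats 1 and 2, against 7.23 (near background) and 7.40 in untreated rats 1 and 2. It was kept through the thiamine livers alone, where it was the higher, so its place in the count was favoured by that choice. Of the 17 measured cytosolic tRNA synthetases (20 listed), which charge tRNAs with amino acids, 2 were higher and 15 lower, the median was -0.15 and 0 passed. The median was -0.07 without untreated rat 1, with 5 higher and 12 lower. Cars1 was at -0.67 ± 0.19 by its brighter probe and at -0.25 by the other, and Eprs1 at -0.38 ± 0.18. Farsa was at 0.63 ± 0.29, and at 0.10 without untreated rat 1, whose spot was flagged as contaminated.

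In the list of serine, folate, proline and transsulfuration enzymes, the proline enzymes Pycr1 and Aldh18a1 were not measured, nor were Mthfd2 and Mthfd1l. Of the 8 measured (12 listed), 2 were higher and 6 lower, the median was -0.12 and 0 passed. The 2 higher were Pck2 and Gpt2, the latter at 0.39 ± 0.18. Psph, Shmt1, Shmt2, Aldh1l2, Cbs and Cth were lower, though Cbs was at 0.33 by its other probe. Without untreated rat 2 the balance turned to 5 higher and 3 lower, with a median of 0.06. The median was -0.28 without thiamine rat 2, -0.20 without untreated rat 1 and -0.07 without thiamine rat 1. Cth, which makes cysteine, was at -0.54 ± 0.18 and the mitochondrial serine hydroxymethyltransferase Shmt2 at -0.45 ± 0.18. Pck2, the mitochondrial phosphoenolpyruvate carboxykinase, was at 7.53 and 7.48 in thiamine rats 1 and 2. In untreated rats 1 and 2 it was at 7.07 and 6.79, both near background. It was kept through the thiamine livers alone, so its higher level there was favoured by that choice, and its test and fold are not given. Of the 17 measured other stress targets and partners of ATF4 (21 listed), 10 were higher and 7 lower, the median was 0.11 and 0 passed. Cebpg and Ddit4 in this count were kept through the thiamine livers alone. Without thiamine rat 1 the balance was 8 higher to 9 lower and the median -0.0034. The median was 0.04 without thiamine rat 2, 0.02 without untreated rat 1 and 0.03 without untreated rat 2. In this group the transcription factor Atf3 was at 11.18 and 10.89 in thiamine rats 1 and 2, against 9.88 and 10.15 in untreated rats 1 and 2. The difference of 1.02 ± 0.20, or 0.96 by the second probe, had limma's smallest adjusted p of the lists, 0.22. The stress cytokine Gdf15 was at 0.45 ± 0.20, or 0.24 without untreated rat 1, and the death gene Bbc3 (PUMA) at -0.42 ± 0.18.

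Among the 7 measured sestrins and partners in mTORC1 control (10 listed), 2 were higher and 5 lower, the median was -0.08 and 0 passed. Leaving out thiamine rat 1 gave a median of -0.13, and leaving out untreated rat 1 gave -0.18. The other measured sestrin, Sesn1, was at -0.29 ± 0.18, Depdc5 at -0.14 ± 0.18 and Wdr24 at -0.10 ± 0.22. Among the genes of FGF21 receptors and PPAR alpha, Klb and Fgfr3 were listed and not measured. Of the 4 measured (6 listed), 2 were higher and 2 lower, the median was -0.0039 and 0 passed. It was -0.12 without untreated rat 2 and 0.04 to 0.05 without any other rat. Fgfr1 was at 0.17 ± 0.20, Fgfr2 at -0.15 ± 0.22 and Fgfr4 at -0.02 ± 0.19. Ppara, the fatty acid receptor that also drives Fgf21 in fasting, was at 8.71 and 9.06 in thiamine rats 1 and 2, against 8.68 and 9.07 in untreated rats 1 and 2. Untreated rat 1 had the lowest level of Ppara, close to that of thiamine rat 1, and the groups overlapped. Ppara was picked out after its values were seen.

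The other 2 branches of the endoplasmic reticulum stress response, those of IRE1 and ATF6, were the set most like this one in function. Ern1, the gene of IRE1 itself, was listed and not measured, nor were Xbp1 and Edem1. By the brightest kept probe of each, the 7 measured of 10 listed genes were lower in the thiamine livers. Of these, 6 were without overlap (19% of all genes were), the median was -0.51 and 0 passed the test. Atf6 was at -0.17 by that probe, with overlap, and at 0.15 by each of its other 2 kept probes. Without thiamine rat 2 or untreated rat 2, 6 of the 7 were lower. The folding factors Sdf2l1, Manf and Hspa5 were at -0.89 ± 0.21, -0.79 ± 0.22 and -0.56 ± 0.19. The untreated rats had no common order in these genes: Manf was at 12.59 and 12.01 in untreated rats 1 and 2, and Sdf2l1 at 11.04 and 11.57. Untreated rat 1 was the lowest liver in 0 of the 7. The difference between the 2 sets was not tested.

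**Figure D4:**
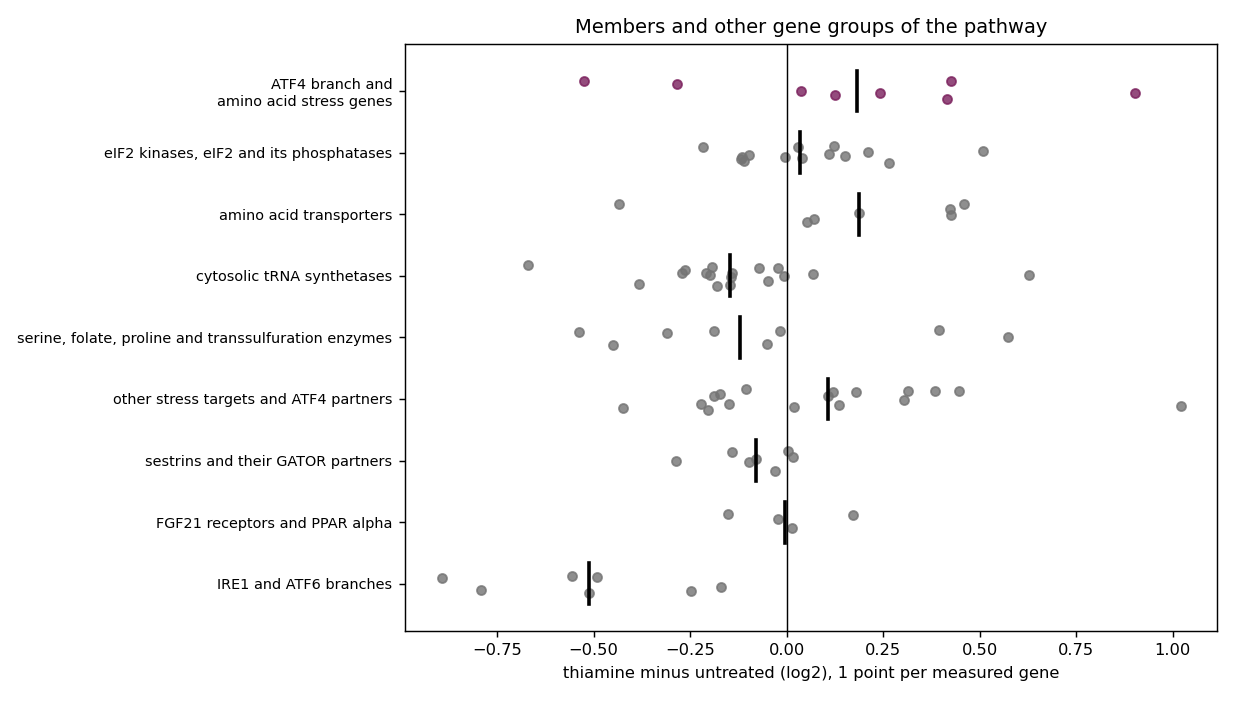
Thiamine minus untreated on the log2 scale (horizontal axis) for each measured gene (1 point each) of the ATF4 branch and amino acid stress genes and of 8 other gene groups (rows). Vertical bars are medians. Medians ran from -0.51 for the IRE1 and ATF6 branches to 0.19 for the amino acid transporters, with 0.18 for the ATF4 branch.

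Markers of other liver cells were compared on the same arrays, since in whole liver fewer cells of a type and less RNA per cell cannot be told apart. The 6 measured markers of Kupffer cells, the liver's macrophages, had higher means in the thiamine livers, though Clec4f and Cd68 overlapped between the groups. The 6 summed to 21561 and 15504 intensity units in thiamine rats 1 and 2, against 14919 and 9333 in untreated rats 1 and 2. Clec4f, the brightest, weighs most in this sum. Its log2 levels were 13.42 and 13.01 in thiamine rats 1 and 2, against 13.02 and 12.17 in untreated rats 1 and 2. Marco was the Kupffer marker without a kept probe. None passed the test, and the median difference of 0.62 was 0.34 without thiamine rat 1. The means of the 4 measured of 5 endothelial markers were higher as well, though Stab1 and Stab2 overlapped and none passed, with sums of 3936 and 3358 with thiamine, against 2519 and 2632 without. Without thiamine rat 1 they split 2 to 2, and the median was 0.24 where all 4 rats gave 0.41. Hepatocyte markers summed to 137632 and 151235 with thiamine, against 144416 and 145368 without, with the spots of Alb, Ttr and Serpina1 saturated on every array. Of the lymphocyte markers 3 of 5 were measured and had higher means, though Cd3d and Cd79b overlapped between the groups. Cd3d was kept through the thiamine livers alone, so its place in that count was favoured by that choice. Of the stellate cell markers 2 were higher and 1 lower (5 listed), and of the bile duct markers 1 was higher and 1 lower (4 listed). None of the pancreas and kidney markers had a kept probe. The Kupffer sum was lowest in untreated rat 2 and the endothelial sum in untreated rat 1. Of the Kupffer markers, Adgre1 was lowest in untreated rat 1. The ATF4 branch genes were mostly lowest in untreated rat 1. The part of these cell types in the differences was not tested.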

How the data were processed

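Liver RNA of 4 rats was read from 4 array reports and the value table of the series, grouped and numbered as the labels give them. The array reports come from CodeLink Expression Analysis 5.0.0.31312, per the file headers. Each intensity in these deposited reports is a spot mean, a local background median or their difference, on a linear scale and not normalized. The deposited value table holds intensities in the same order on each array as the scanner values (Spearman's rho of 1), with column medians from 147.483 to 147.506 and a floor of 0.001. No source used here says how the authors made it.

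The background was corrected with normexp (offset 50) over 35129 features, the 1280 control features were left out, and log2 values were quantile normalized. Masked spots were missing, and other flagged spots were kept. The test was limma 3.58.1 (R 4.3.3), two-sided, with Benjamini-Hochberg adjustment over the 18664 kept probes and a threshold of 0.05. Moderation raised the degrees of freedom from 2 to 10.8. The fit was tested on simulated data.

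Names come from the platform annotation, with symbols brought up to date in RefSeq's GRCr8 table. There 16740 probes had 1 gene and 165 had several (not used). RefSeq accessions named 367 more, 13 conflicted, and 16564 have no name here. The brightest kept probe stands for a gene, which gave 8985 genes. Members and gene lists were chosen with earlier results of these data known. Named are all members and, of each other list, up to 3 genes with the smallest unadjusted p, and genes named beyond this rule were chosen after their values were seen (Ppara among them). When 1 rat was left out, the normalized values and kept probes of all 4 arrays were used. Promoter letters came from RefSeq (GRCr8).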

Additional observations from a re-analysis of the deposited data

How the results depend on the processing

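The results were recomputed with background-subtracted intensities, a normexp offset of 16, median scaling, no filter on dim probes, a filter that asked for signal above background in all 4 livers, the deposited table, flagged spots set to missing, a replicate block, and without each rat in turn. The differences of the 8 members and their count were also taken as the mean over a gene's kept probes, with no test. Apart from the fits that left out 1 rat, all differences of the 8 members kept their sign and none passed, with the adjusted p of limma between 0.207 and 0.999. Under them Atf4 ran from 0.01 to 0.06, Asns from 0.09 to 0.16, Chac1 from 0.24 to 0.28, Ddit3 from 0.42 to 0.44, Trib3 from 0.42 to 0.45, Fgf21 from 0.89 to 0.93, Atf5 from -0.53 to -0.17 and Sesn2 from -0.37 to -0.18. Sesn2 has no value with only probes above background on all 4 arrays.

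When 1 rat was left out, the differences ran from -0.11 to 0.19 for Atf4, -0.86 to -0.19 for Atf5, 0.29 to 0.54 for Ddit3, 0.10 to 0.75 for Trib3, -0.26 to 0.51 for Asns, -0.06 to 0.55 for Chac1, -0.42 to -0.15 for Sesn2 and -0.26 to 2.06 for Fgf21. Atf4 turned to -0.11 without thiamine rat 1, and Atf4, Asns, Chac1 and Fgf21 turned to -0.09, -0.26, -0.062 and -0.26 without untreated rat 1. Fgf21 passed at 2.06 without untreated rat 2. The number of members higher ran from 2 to 6, with 2 without untreated rat 1. The cause was not tested. Over all probes the test called 0 under every alternative with all 4 arrays other than the replicate block, and 1 to 65 when 1 rat was left out, and 0 genes of the 8 other lists passed in those fits.

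The replicate numbers of the titles name the rats and nothing says that they pair them: same-numbered rats deviated together with a correlation of -0.07 over kept probes. With the replicate block limma called 126 probes, with 0 members among them, 1 gene of the IRE1 and ATF6 list (Sdf2l1) and 1 of the other stress targets (Atf3).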

Other observations

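Some genes of the lists around the ATF4 branch showed the same contrast between the untreated rats as Fgf21 and Asns, and were picked out after their values were seen. The mitochondrial folate enzyme Aldh1l2 was at 10.55 and 10.61 in thiamine rats 1 and 2, against 10.30 and 11.49 in untreated rats 1 and 2. Its untreated gap of 1.19 was wider than in 99.35% of kept probes. The amino acid sensing kinase Eif2ak4 (GCN2) was at 9.42 and 9.25 with thiamine, against 9.12 and 9.78 without, a gap of 0.66. Psat1, Aldh1l2, Eif2ak4, Asns, Atf5 and Fgf21 had their highest value in the same liver, that of untreated rat 2. The Atf5 spot there was flagged as contaminated, and Psat1 was near background in the other livers. A shared highest liver follows in part from how these genes were picked, and the share of all genes highest there is not given. Among the other members, Atf4, Ddit3 and Chac1 were highest in thiamine rat 1, Trib3 in thiamine rat 2 and Sesn2, by its measured probe, in untreated rat 1. Other listed genes had wide gaps in the other direction. Among them, untreated rat 2 minus rat 1 was -0.64 for Creld2 and -0.57 for Manf.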
